A study of Mus musculus with 4 samples.

Results

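Open chromatin was examined around Tbx2 and Tbx3 in posterior forelimb buds of mouse embryos with and without Sonic hedgehog (SHH). The loci were taken as the gene bodies (GENCODE M21, mm10 coordinates) with 250 kb on either side, which places Tbx2 in a window on chromosome 11 from 85582551 to 86091948 and Tbx3 in a window on chromosome 5 from 119420669 to 119934724. ATAC-seq peaks from 4 libraries merged into 44692 regions, of which 48 overlapped these windows, 30 around Tbx2 and 18 around Tbx3. The Tbx2 window includes the 3′ introns of its upstream neighbor Bcas3. The loci were chosen by their peak calls in these same lists, in particular a region in Bcas3 that was called in both Shh-/- libraries and in neither wild-type (WT) library, so the counts of such regions are descriptions and carry no test.

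There were 2 WT and 2 Shh-/- embryos, all of Swiss Webster background and taken at E10.5 (35 somites). The mutants were homozygous for a null allele of Shh (Shh tm1amc). Each library was prepared from 5000 cells of the posterior forelimb buds of 1 embryo with 18 PCR cycles. In ATAC-seq the Tn5 transposase cuts accessible DNA and adds sequencing adapters, so a peak is a stretch where cuts accumulated above background. The WT lists held 39080 (replicate 1) and 11973 peaks (replicate 2), and the Shh-/- lists held 5589 (replicate 1) and 18459 peaks (replicate 2). The number of reads behind each list is unknown from the peak lists. An absent call therefore cannot be read as closed chromatin. Promoter peaks of Prrx1, a marker of limb mesenchyme, were present in all 4 libraries, whereas those of Tbx5, Hand2 and Hoxd13, which mark the forelimb or the posterior limb, were present only in WT replicate 1, the longest list. Msx1 and Twist1, also of limb mesenchyme, had one in 3 libraries each. Of the markers of other cell types, Cdh5 and Pecam1 (endothelium), Hbb-y and Gata1 (blood), Fgf8 (limb ectoderm) and Myf5 (muscle) had no promoter peak in any list. Krt8 (ectoderm) and Pitx1 (hindlimb) had one in WT replicate 1, Epcam (ectoderm) in Shh-/- replicate 2, and Pax3 (muscle) and Tbx4 (hindlimb) in both of these libraries.

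TBX2 and TBX3 are closely related T-box transcription factors that act mainly as repressors. In the limb bud both genes are expressed along the posterior and anterior margins, where the posterior domain responds to SHH, and reduced dosage of TBX3 in humans causes ulnar-mammary syndrome, in which posterior limb structures are affected. Each gene lies beside another T-box gene, Tbx2 beside Tbx4 (a hindlimb gene) and Tbx3 beside Tbx5 (a forelimb gene), and both neighbors fall inside the windows. SHH signals through the GLI transcription factors. GLI3, the main repressor among them in the limb bud, is processed into its repressor form when the ligand is missing.

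The 4 sequences shown here carry the main contrasts in the Tbx2 window: the region called only in Shh-/- libraries, a region that became Shh-specific when lists were restricted, the region called only in WT libraries, and the distal region called in every library. Each is 300 bases of the plus strand of mm10 (GRCm38.p6) centred on the best ranked summit. Capitals mark 1 form of the E-box (CATCTG, here as its reverse complement CAGATG). Other forms of the E-box were not searched and are not marked. No Tbx2, Tbx3 or Tbx5 entry was matched in the RefSeq promoter table used here.
Bcas3 intron, Shh-specific (chr11:85632625-85632924): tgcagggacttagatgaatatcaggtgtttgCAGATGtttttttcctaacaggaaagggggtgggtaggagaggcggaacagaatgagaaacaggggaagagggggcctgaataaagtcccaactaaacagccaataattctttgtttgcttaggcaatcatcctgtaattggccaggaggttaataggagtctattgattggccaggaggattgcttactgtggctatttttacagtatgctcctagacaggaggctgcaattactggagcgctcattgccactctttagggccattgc
Distal to Tbx4, called in WT replicate 1 and both Shh-/- libraries (chr11:86016513-86016812): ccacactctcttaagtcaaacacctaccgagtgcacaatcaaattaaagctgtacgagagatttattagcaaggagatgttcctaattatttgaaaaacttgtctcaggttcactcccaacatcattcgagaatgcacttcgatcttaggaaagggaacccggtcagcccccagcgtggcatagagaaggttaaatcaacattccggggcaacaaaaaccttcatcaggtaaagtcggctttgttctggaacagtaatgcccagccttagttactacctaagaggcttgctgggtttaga
Tbx4 intron, WT-specific (chr11:85910698-85910997): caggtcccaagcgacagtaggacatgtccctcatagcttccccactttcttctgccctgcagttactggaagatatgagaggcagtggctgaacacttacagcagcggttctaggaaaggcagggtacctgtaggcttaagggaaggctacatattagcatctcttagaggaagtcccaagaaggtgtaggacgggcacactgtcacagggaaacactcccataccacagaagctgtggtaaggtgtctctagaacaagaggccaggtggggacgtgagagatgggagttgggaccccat
Between Tbx2 and Tbx4, called in all 4 libraries (chr11:85876294-85876593): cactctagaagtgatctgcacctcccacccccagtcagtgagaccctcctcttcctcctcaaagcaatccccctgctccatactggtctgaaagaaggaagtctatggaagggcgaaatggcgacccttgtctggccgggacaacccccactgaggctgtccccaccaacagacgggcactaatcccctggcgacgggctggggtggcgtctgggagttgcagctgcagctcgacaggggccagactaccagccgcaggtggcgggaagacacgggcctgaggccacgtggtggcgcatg

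To determine which parts of the Tbx2 locus followed genotype, regions were sorted by the libraries that called them. WT-specific regions had a call from each WT library and none from the mutants, and Shh-specific regions were the reverse. The Tbx2 window held 1 Shh-specific region, against 0.396% of all regions, and 1 WT-specific region, against 2.09% of all regions. The Tbx3 window held neither. Both specific regions were distal, meaning outside all promoters, and among distal regions 0.607% were Shh-specific and 1.78% WT-specific. Each window held 1 region called in all 4 libraries, against 7.97% of all regions. Most members were called once: 20 of the 30 Tbx2 regions and 16 of the 18 Tbx3 regions came from a single library. WT replicate 1 alone accounted for 15 of the Tbx2 regions and 14 of the Tbx3 regions, against 51.6% of regions genome-wide. Single calls were thus the majority genome-wide as well. There, WT replicate 2 alone accounted for 4.28% of regions. Shh-/- replicate 1 alone accounted for 1.014% and Shh-/- replicate 2 alone for 7.33%. Of 21938 protein-coding genes, 28.5% had at least 1 WT-specific region in the same kind of window, 1.92% had at least 1 Shh-specific region and 0.629% had both, as Tbx2 did.

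The Shh-specific region lay 199.8 kb upstream of the Tbx2 transcription start site (TSS), at 85632519 to 85633116 of chromosome 11. This is the long intron from 85583995 to 85801784 of Bcas3, intron 24 of the 28-exon transcript. The peak ranked 868 of 5589 in Shh-/- replicate 1, within the best 15.5% of that list. In Shh-/- replicate 2 it ranked 3509 of 18459, within the best 19.01%. Neither WT list held a peak there. The summits were 37 bp apart in the mutant libraries, against a median of 77 bp over all Shh-specific regions. By the mean of its within-list percentiles, this region was placed 2 of the 177 Shh-specific regions. The nearest TSS of any annotated gene belonged to Bcas3os1, an antisense transcript of Bcas3, at 86.9 kb. The sequence around the summit, shown above, held 1 match to the E-box form CATCTG and was 46% GC.

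GC content moved with the lists. Shh-specific regions had a median GC content of 41.5%, against 55.5% for all regions and 53% for distal ones. Among regions called in WT replicate 1 and Shh-/- replicate 2, those at or below 55.5% GC were called in WT replicate 2 in 34.4% of cases and in Shh-/- replicate 1 in 43.3%. Above that GC content the shares were 67.3% and 27.6%. WT replicate 2 therefore called GC-poor regions less often than GC-rich ones, and Shh-/- replicate 1 the reverse. The part of GC content in the missing call of WT replicate 2 at the Bcas3 intron was not tested. WT replicate 1 called 84.8% of the 1057 distal regions of this GC range that both Shh-/- libraries had called, and the Bcas3 region was among those it did not. WT replicate 2 called 25.6% of the same regions, and the Bcas3 region was missing there too. The cause of these missing calls was not tested.

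The WT-specific region lay on the other side of the gene, 78.3 kb downstream of the Tbx2 TSS at 85910276 to 85911118, with its summit in an intron of Tbx4 and its end reaching into the exon from 85911107 to 85911259. Its ranks were far lower than those of the Bcas3 region. It ranked 16489 of 39080 in WT replicate 1, at 42.2% of the list, and 9785 of 11973 in WT replicate 2, at 81.7%. In WT replicate 2 this peak shared its score with all peaks ranked from 8858 to 10264. It was placed 500 of the 934 WT-specific regions by mean percentile. The summits of the 2 libraries were 199 bp apart. With scores of at least 50, or with each list restricted to its 5589 best peaks (equal list size), the WT-specific call was gone and the Tbx2 window held 0 such regions.

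**Figure D1:**
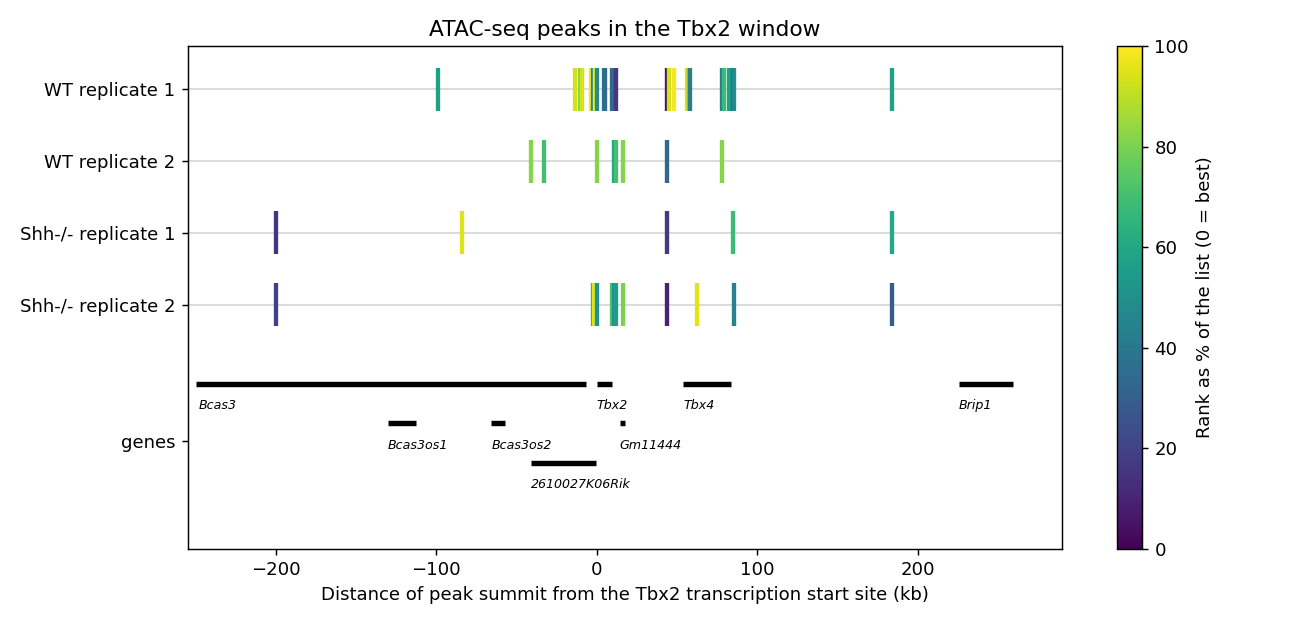
Peaks of each library in the Tbx2 window. The horizontal axis is the distance of the peak summit from the Tbx2 TSS in kb, each tick is 1 peak and its color gives the rank as a percentage of the library's list, with dark ticks best. Black bars are genes. The ticks at 199.8 kb upstream, in Bcas3, appear in both Shh-/- rows and in neither WT row.

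A further region was Shh-specific only when the lists were restricted. It lay 184.1 kb downstream of the Tbx2 TSS, in intergenic sequence distal to Tbx4 (86016129 to 86017134), and was 44% GC. The peak ranked 5449 of 18459 in Shh-/- replicate 2, within the best 29.5% of the list. In Shh-/- replicate 1 it ranked 3378 of 5589, at 60.4%. In WT replicate 1 it ranked 22287 of 39080, at 57.0%, and WT replicate 2 did not call it. The WT replicate 1 peak was shorter, at 504 bp, than those of Shh-/- replicate 1 at 725 bp and Shh-/- replicate 2 at 1006 bp. The WT replicate 1 peak had a score of 38 and ranked beyond 5589. It therefore dropped out at a score of at least 50 and at equal list size. The Tbx2 window then held 2 Shh-specific regions. Neither cut takes the same share of each list. Equal list size keeps the Shh-/- replicate 1 list whole, with its peak at 60.4%. It removes the WT replicate 1 peak at 57.0%. The Shh-specific call of this region thus depended on the cut. At equal list size 3.3% of all regions were Shh-specific and 3.73% were WT-specific.

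The only region around Tbx2 that every library called was intergenic and lay between Tbx2 and Tbx4, 43.9 kb downstream of the Tbx2 TSS and 10.1 kb upstream of the nearest annotated Tbx4 TSS (85875789 to 85876821). It was the best ranked peak of the Tbx2 window in WT replicate 1, at 2161 of 39080. It was also the best in WT replicate 2, at 4065 of 11973, and in Shh-/- replicate 2, at 1743 of 18459. In Shh-/- replicate 1 it ranked 938 of 5589, second to the peak in the Bcas3 intron. As percentages of the lists these were 5.53% and 34.0% in WT and 16.8% and 9.44% in Shh-/-, so the genotypes overlapped. The 4 peaks shared a stretch of 467 bp, from 85876111 to 85876577. Their summits were spread over 242 bp, against a median of 126 bp over all regions called in 4 libraries.

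The Tbx2 promoter was called in 3 libraries. A peak over the TSS (85832170 to 85832976), reaching into the first of 7 exons of Tbx2 and over the start of the divergent transcript 2610027K06Rik, ranked 18852 of 39080 in WT replicate 1 and 9783 of 11973 in WT replicate 2. In Shh-/- replicate 2 it ranked 9469 of 18459. These are 48.2%, 81.7% and 51.3% of the lists, in the middle or the lower part of each. Shh-/- replicate 1 had no peak within 2 kb before or 1 kb after the TSS. Its absence there was shared by many genes, since 21.1% of protein-coding genes had promoter peaks in every library but that one, and only 17.3% had a promoter peak in it. Within the promoter, weaker peaks were called upstream of the TSS by Shh-/- replicate 2 alone, at rank 17660, and by WT replicate 1 alone, at rank 38717.

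Around the gene itself, regions called in 2 or more libraries lay from 2.55 kb upstream to 16.6 kb downstream of the Tbx2 TSS. The upstream region (85829729 to 85830470) ranked 18851 in WT replicate 1 and 11060 in Shh-/- replicate 2. WT replicate 1 alone called regions over coding exons 4 and 5, at rank 14685, and over exon 6, at rank 13320. The 3′ end of exon 7 (85841731 to 85842240) was called in WT replicate 1 at rank 13321 and in Shh-/- replicate 2 at rank 13294, with summits 11 bp apart. It was the GC-richest member at 77.5%. A broad region of 1935 bp beyond the gene, at 85843208 to 85845142, held 1 long peak in WT replicate 1 at rank 6327, or 16.2% of the list. The same stretch was split into a pair of peaks in WT replicate 2, at ranks 7128 and 8402, and in Shh-/- replicate 2, at ranks 9470 and 10233. The region 16.6 kb downstream, in an intron of Gm11444, was called in WT replicate 2 at rank 9784 and in Shh-/- replicate 2 at rank 14778. Shh-/- replicate 1 called none of these regions near the gene, and each of those called in 2 or more libraries had at least 1 WT and 1 Shh-/- call.

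The remaining shared region of the Tbx2 window lay 84.8 kb downstream of the TSS, just beyond the 3′ end of Tbx4 (85917195 to 85918510). WT replicate 1 had 2 peaks in it, at ranks 12269 and 18853. Shh-/- replicate 1 had a peak at rank 3811 that bridged them, and Shh-/- replicate 2 had a peak at rank 8166. WT replicate 2 did not call it. This region and the one at 184.1 kb were the 2 members called in every library but WT replicate 2, a pattern of 2.26% of all regions. A missing call in that library was common, since it called 34.6% of the 1365 distal regions that both Shh-/- libraries had called.

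Of the regions called in a single library, the best ranked in WT replicate 1 were those over exons 4 to 6 of Tbx2, given above. In WT replicate 2 the only such regions were in Bcas3 introns 32.6 kb and 40.8 kb upstream of Tbx2, at ranks 8401 and 9782. Shh-/- replicate 1 had 1, also in Bcas3, at rank 5316 of 5589. Shh-/- replicate 2 had 1 in the Tbx2 promoter window and 1 in the promoter window of a Tbx4 transcript, at ranks 17660 and 17661 of 18459. The Tbx4 promoter windows were otherwise called only in WT replicate 1, where 3 peaks had a best rank of 16488.

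The Tbx3 promoter was called in all 4 libraries and was the best ranked peak of that window in each. The region (119670013 to 119671281) spanned the TSS at 119670669 and part of exon 1, inside the annotated span of the antisense gene Tbx3os1. It ranked 2914 of 39080 in WT replicate 1 and 1439 of 11973 in WT replicate 2. In the mutants it ranked 912 of 5589 in Shh-/- replicate 1 and 2597 of 18459 in Shh-/- replicate 2. These ranks were 7.46% and 12.02% of the lists in WT and 16.3% and 14.1% in Shh-/-. Both WT libraries were thus ahead of both Shh-/- libraries by a few percentage points of the list, on a scale set by list length, and no test was made of this order. The summits of the 4 peaks fell within 54 bp of each other and the peaks shared 515 bp. At equal list size this region and the one between Tbx2 and Tbx4 were still called in every library, as were 28.6% of all regions. Promoter peaks in all 4 libraries were found for 16.1% of protein-coding genes.

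**Figure D2:**
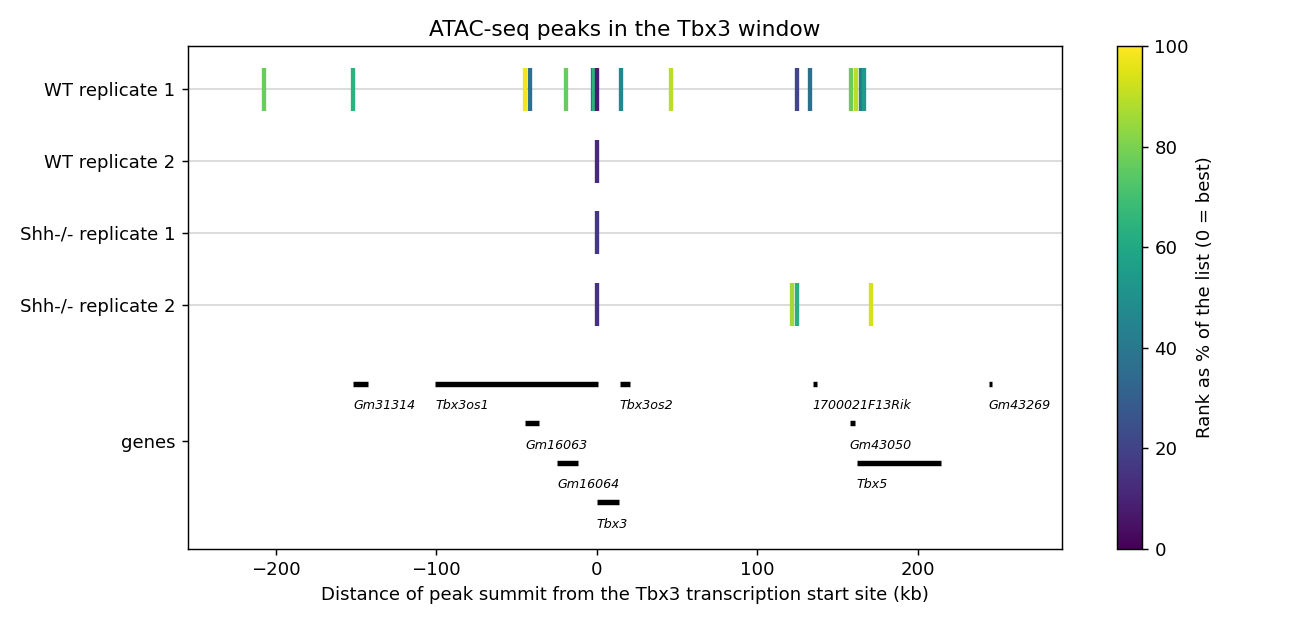
Peaks of each library in the Tbx3 window, drawn as for Tbx2, with the distance of the summit from the Tbx3 TSS in kb on the horizontal axis. The promoter carries a dark tick in every row, and nearly all other ticks belong to WT replicate 1, which had 16 peaks against 1, 1 and 4 in the other libraries.

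Beyond its promoter, the Tbx3 window held 1 region called in more than 1 library. It was intergenic, 124.8 kb downstream of Tbx3 (119795257 to 119796055), and ranked 8133 of 39080 in WT replicate 1 and 11723 of 18459 in Shh-/- replicate 2. The summits were 1 bp apart. The percentages of the lists were 20.8% and 63.5%, and the other 2 libraries had no peak there. Of the regions called once, the best in WT replicate 1 were 2.49 kb upstream of the Tbx3 TSS, at rank 12946, and in the promoter window of a Tbx3os1 transcript, at rank 14164. The latter tied in score with a region 133.3 kb downstream of the Tbx3 TSS, at rank 14165. Shh-/- replicate 2 alone called a region 121.9 kb downstream at rank 15817 and a region over exon 5 of Tbx5 at rank 17240. The promoter of Tbx5, which lies in the same window, was called in WT replicate 1 only, at rank 15806.

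**Figure D3:**
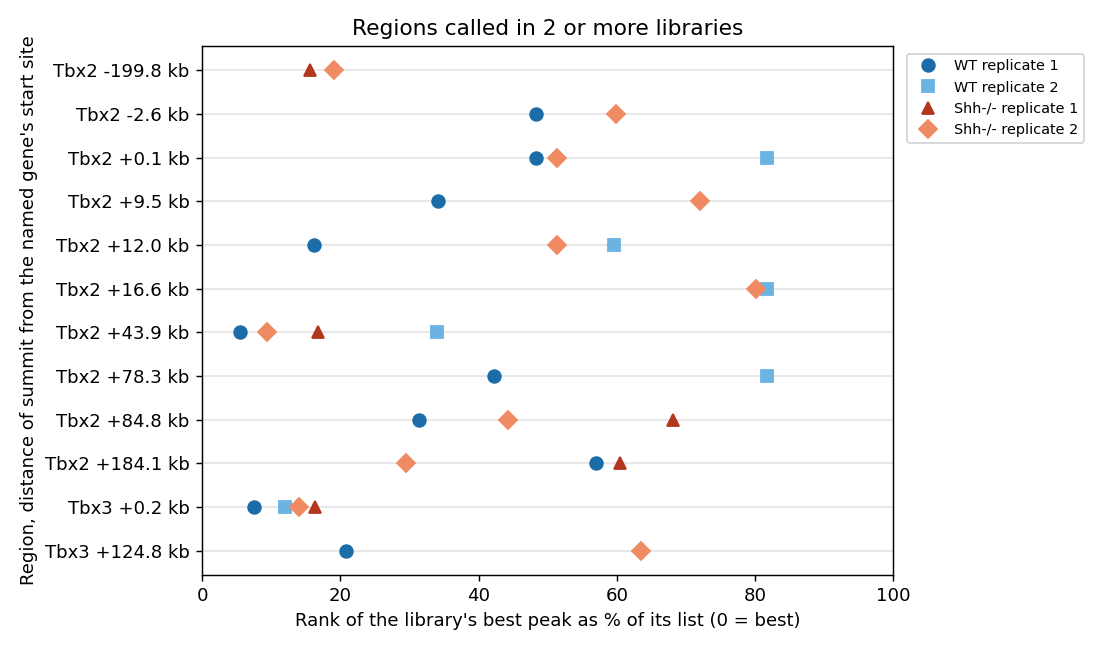
Within-list ranks of the regions called in 2 or more libraries, as a percentage of each library's list (horizontal axis, 0 is best), with 1 row per region named by its distance from the Tbx2 or Tbx3 TSS. Circles and squares are WT replicates 1 and 2, and triangles and diamonds are Shh-/- replicates 1 and 2. The Tbx3 promoter and the region between Tbx2 and Tbx4 have a mark for every library, and the top row, in Bcas3, has Shh-/- marks only.

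The number of peaks in each window was then compared between genotypes. The Tbx2 window held 24 and 8 peaks in WT replicates 1 and 2, against 5 and 12 peaks in Shh-/- replicates 1 and 2. The means were 16 ± 11.3 in WT and 8.5 ± 4.95 in Shh-/- (SD, n = 2). A two-sided exact permutation test gave p = 0.667, where 0.333 is the smallest value possible. With that limit it could not separate the genotypes whatever the counts, and the loci were chosen on these same lists. The Tbx3 window held 16, 1, 1 and 4 peaks in the same order, with means of 8.5 ± 10.6 in WT and 2.5 ± 2.12 in Shh-/- (SD, n = 2, exact permutation test, two-sided, p = 1). In both windows the ranges of the genotypes overlapped, and WT replicate 1 set the higher WT mean. Without it, the WT minus Shh-/- difference was -0.5 peaks around Tbx2 and -1.5 around Tbx3.

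List length moved with these counts. Per 10000 peaks of the list, the Tbx2 window held 6.14 and 6.68 peaks in WT and 8.95 and 6.501 in Shh-/-, so the difference turned to fewer peaks in WT. At equal list size, 1 peak remained in each WT library, against 5 and 3 in the mutant ones. The list of Shh-/- replicate 1 is used whole in that comparison and so includes its lowest scores. The Tbx3 window held 4.09 and 0.835 peaks per 10000 in WT and 1.79 and 2.17 in Shh-/-, and at equal list size each library had the promoter peak and no other. Compared with the windows of all protein-coding genes, Tbx2 was above the median in every library, with 70.1% to 80.8% of genes having fewer peaks. Tbx3 was above the median in WT replicate 1 only, where 60.3% of genes had fewer peaks, and had 14.6% to 30.5% of genes below it in the other libraries.

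**Figure D4:**
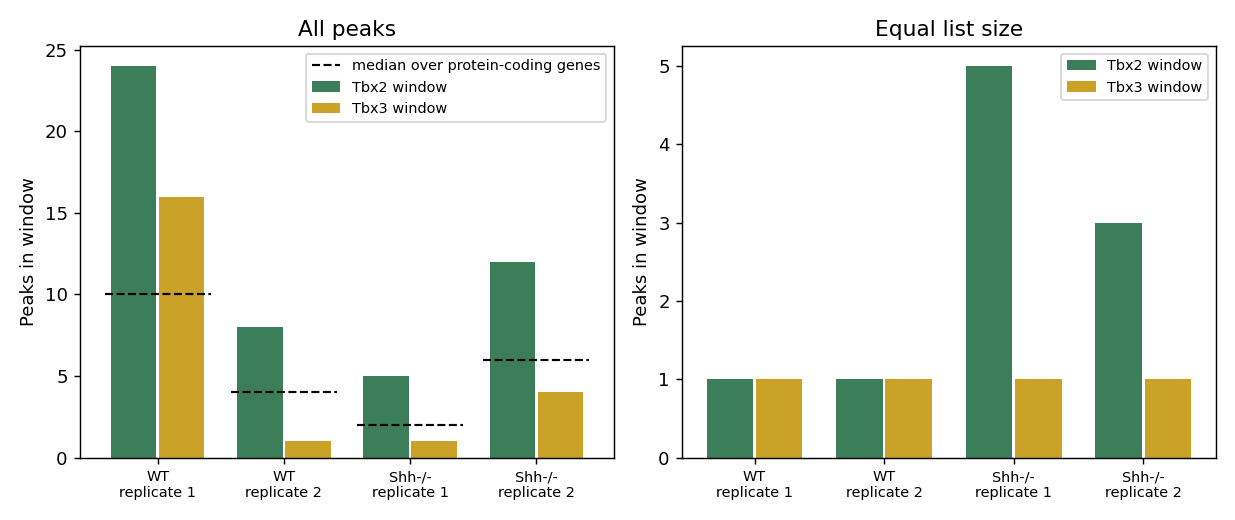
Number of peaks in the Tbx2 and Tbx3 windows in each library, with all peaks on the left and with each list restricted to its 5589 best peaks on the right. Bars start at 0 and are single libraries, and dashed lines give the median over the windows of protein-coding genes. With all peaks the Tbx2 bars run from 5 to 24, and at equal list size the Shh-/- bars of 5 and 3 exceed the WT bars of 1.

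Calls were also compared for how often another library shared them. In the Tbx2 window, 8 of the 23 regions of WT replicate 1 were called in another library, or 34.8%, against 40.5% of that library's regions genome-wide. In the Tbx3 window this was 2 of 16, or 12.5%. The other libraries had 5 of 7 (WT replicate 2), 4 of 5 (Shh-/- replicate 1) and 9 of 11 (Shh-/- replicate 2) Tbx2 regions shared, against 83.5%, 91.7% and 81.9% of their regions genome-wide.

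Members were also described by their composition. Around the summit, GC content had a median of 54.5% in the Tbx2 window and 58% in the Tbx3 window, against 55.5% over all regions. Promoter regions of any gene made up 7 of the 30 Tbx2 regions and 6 of the 18 Tbx3 regions, against 39.2% of all regions. Within 300 bases around the summit, on both strands, 0 of the 48 regions held the GLI consensus TGGGTGGTC or its core GGGTGGTC, found in 0.483% and 1.27% of all regions. None held the T-box binding sequence AGGTGTGA, found in 1.45% of all regions. The E-box form CATCTG, the only one searched, occurred in 13 of the 48, or 27.1%, with 5 in the Tbx2 window and 8 in the Tbx3 window. It was found in 22.5% of all regions, 28.4% of distal regions and 13.4% of promoter regions, and most members were distal. An absent match says only that these letters were not in the window searched.

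Genes whose promoter calls were most like those of Tbx2 and Tbx3 were found by the distance between within-list percentiles over the 4 libraries, with a library without a peak set to the end of its list. Among 4630 genes called in the same 3 libraries as Tbx2, the nearest were Zfp106, Serf1, Uba2, Dnaja4 and Kdm5b, at 6.62 to 8.46 percentage points. Among 3523 genes called in all 4 libraries like Tbx3, they were Wbp2, Nlk, Srf, Tyk2 and AW822073, at 4.10 to 5.41 percentage points.

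For comparison with other genes of the pathway, promoter peaks were counted at 17 SHH-responsive limb genes other than Tbx2 and Tbx3. They were present at 16 and 11 of these genes in the WT libraries and at 3 and 10 in the Shh-/- libraries (replicates 1 and 2). The genes called in all 4, as Tbx3 was, were Ptch1 (the SHH receptor), Jag1 (a Notch ligand) and Pkdcc (a secreted kinase). The percentages for all protein-coding genes were 60.4% and 39.2% in WT and 17.3% and 51.3% in Shh-/-. Around these genes, 6 windows held a WT-specific region and 2 a Shh-specific region, the latter those of Grem1, a BMP antagonist, and Hand2, a transcription factor of the posterior limb. The WT-specific windows included those of Hoxd11, Hoxd12 and Hoxd13, neighboring genes whose windows overlap, so they are not separate loci. Among 15 other T-box genes, promoter peaks were present at 12 and 6 in WT and at 1 and 7 in Shh-/-, with Tbx15 the only gene called in every library. Windows of 7 of them held a WT-specific region, for Tbx4 the same one as for Tbx2, and none held a Shh-specific region. Over all protein-coding genes, 28.5% of windows held a WT-specific region and 1.92% a Shh-specific region.

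The limits of the windows did not cut through a cluster of peaks. The Bcas3 region lay 49.97 kb inside the 5′ limit of the Tbx2 window, and the next region outside it was 151.1 kb beyond the limit, in another part of Bcas3 called in Shh-/- replicate 2 only. At the 3′ limit, the region at 184.1 kb lay 74.8 kb inside, and the Brip1 promoter, called in all 4 libraries, was 108.9 kb outside. The Bcas3 promoter itself (85352461 to 85353682) was also outside and was called in all 4 libraries, at ranks 1318 and 1489 in WT and 721 and 558 in Shh-/-. Around Tbx3, the outermost members lay 42.4 kb and 92.7 kb inside the limits, and the next regions outside, at 40.1 kb and 27.6 kb, were called in WT replicate 1 only.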

How the data were processed

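ATAC-seq peak lists from 2 WT and 2 Shh-/- libraries were used, grouped by the titles in the labels. The submitters' processing notes name Bowtie2 2.2.5, MACS2 2.1.0 and mm10 (GRCm38). Per the study's methods, the caller used a 200 bp window with a q-value cutoff of 0.05. The deposited files are 1 list per library. Read filters and any Tn5 shift are not given in the sources used here. The score that the authors deposited with each peak has no stated scale and served here for ranking and filtering inside a list alone. Positions and summits are as the authors deposited them. The fold, p and q columns held 0. Read counts, and so depth, are not part of the lists, and the limma fit to signal described in the study was not repeated.

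Peaks overlapping by at least 1 bp were merged with pandas 2.3.3. Ties in score were ordered by chromosome and position. Promoters ran from 2 kb before to 1 kb after a TSS (GENCODE M21, basic set), and sequence came from GRCm38.p6 with pysam 0.24.0, in which 0 peaks ended beyond a chromosome. GC content used 200 bp and motifs 300 bp centred on the best ranked summit. Peak numbers were compared by two-sided exact permutation tests, which cannot go below p = 0.333 with 2 against 2 libraries. Merging and the WT-specific and Shh-specific calls were tested on simulated data, and ranking was not.

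Every region called in 2 or more libraries was named, with the 2 best ranked of those called once in each window and library. These members, the gene lists and the motifs were chosen with earlier results of these data known. Alternatives were a score of at least 50, equal list size, peaks per 10000, other windows, summits within 200 bp, merging across 200 bp, the tied ranks and leaving out each library.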

Additional observations from a re-analysis of the deposited data

How the results depend on the processing

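The difference in peak number in the Tbx2 window (WT minus Shh-/-, 7.5 peaks) turned to -1.5 with scores of at least 50, -3 at equal list size and -1.31 per 10000 peaks. Leaving out 1 library at a time gave -0.5 (without WT replicate 1) to 15.5 (without WT replicate 2). The difference of 6 peaks in the Tbx3 window became 2 with scores of at least 50, 0 at equal list size, 0.487 per 10000 peaks and 17 with 500 kb on either side, and ran from -1.5 (without WT replicate 1) to 13.5 (without WT replicate 2). With the replicate numbers as a block the differences were the same, 7.5 and 6, each with p = 1 by exact sign flips, where 0.5 is the smallest value possible; the numbers share no stated origin. None of these tests could pass 0.05, so they say nothing about stability. The WT-specific count of 1 around Tbx2 was 0 with scores of at least 50 and 0 at equal list size, and ran from 1 to 16 without 1 library (3 without WT replicate 1, 16 without WT replicate 2 and 3 without Shh-/- replicate 2), since fewer libraries then had to agree. The Shh-specific count of 1 was 2 with scores of at least 50, 2 at equal list size and 0 within 100 kb, and ran from 1 to 3 (3 without WT replicate 1, 3 without Shh-/- replicate 1 and 2 without Shh-/- replicate 2). The Bcas3 region was in the Shh-specific set with scores of at least 50, at equal list size, with summits within 200 bp and with gaps merged. The outcomes for score, list size and summits were fixed by its calls and say nothing about stability. Neither WT list held a peak there. Its Shh-/- peaks had scores of 200 and 230, ranks of 868 and 3509, and summits 37 bp apart. Around Tbx3, the WT-specific count of 0 ran to 14 without WT replicate 2. Its Shh-specific count of 0 was 1 with 500 kb on either side (120172034 to 120172585) and ran to 2 without Shh-/- replicate 1. The promoter calls were 3 libraries for Tbx2 and 4 for Tbx3 also within 500 bp of a TSS. The 70 ranks computed at the best and worst place among ties stayed within 1.5 times the value given. Depth, which the lists do not hold, limits every absent call.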
